A study of Mus musculus with 176 samples.

Results

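CD4 T cells that bind the apolipoprotein B peptide P6 on the MHC-II molecule I-Ab, detected with a P6:I-Ab tetramer (P6+ cells), were divided by the V segment of their receptor β chain. The members were chosen by their reads: a cell counted as having Trbv13-2 when 10 or more of its raw reads were assigned to this V gene, the segment shared by the most common P6-specific β chain of the study. Of the 32 P6+ cells, 16 had Trbv13-2 and 16 did not, out of 176 sequenced cells in the series. All P6+ cells came from 1 female C57BL/6J mouse, which received P6 in complete Freund's adjuvant at 7 weeks of age and P6 in incomplete Freund's adjuvant at 9 weeks, and whose inguinal and para-aortic lymph nodes were taken at 11 weeks. The cells were sorted singly as TCRβ+ CD4+ CD44hi antigen-experienced cells after removal of cells stained for CD45R, CD8a and myeloid or natural killer markers, and each was sequenced full-length by Smart-Seq2. The other cells of the series were P6- cells of the same antigen-experienced gate, of which all but 15 passed the limits on reads, genes and mitochondrial reads used here.

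A T cell carries 1 receptor specificity, assembled from V, D and J segments in the thymus and inherited by all of its descendants, so that T cells with the same rearranged β chain are often members of 1 expanded clone. The same clone can nevertheless hold cells of different states. Regulatory T cells depend on the transcription factor Foxp3 and restrain other lymphocytes, whereas T follicular helper cells depend on Bcl6 and TCF1 and help B cells make antibody, and both kinds arise in lymph nodes after immunization.

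The junction sequences of the most common receptor are shown because the V segment that divides the cells is 1 end of them. In the β junction, lower case marks bases found at the 3′ end of Trbv13-2 or the 5′ end of Trbj2-4, and capitals mark bases of neither. The α junction was compared with Traj17 alone, since no germline end of its V gene was used here, and every base was found at the 5′ end of Traj17, so that the lack of capitals there says nothing of the V end.
β junction, Trbv13-2 to Trbj2-4: ggtgaCAGGGGGCGAcaaaa
α junction, to Traj17: taacagtgca
germline Trbv13-2, last 20 bases: cttctgtgccagcggtgatg
germline Trbd1: gggacagggggc
germline Trbj2-4, first 20 bases: agtcaaaacaccttgtactt
germline Traj17, first 20 bases: tgactaacagtgcagggaac
The β junction of 20 bases took 5 from the V segment and 5 from the J segment, and the stretch gacagggggc of 10 bases was shared with the D segment Trbd1. On the plus strand of GRCm38, Trbv13-2 lies on chromosome 6 at 41121396 to 41121832, Trbd1 at 41533201 to 41533212 and Trbj2-4 at 41543362 to 41543410. Traj17 lies on chromosome 14 at 54201775 to 54201837.

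The reads of Trbv13-2 chose the groups and are given as a description. The 16 cells with Trbv13-2 had 48 to 780 reads of it (median 267), or 41.1 to 477 reads per 1000000 (cpm). Of the 16 cells without it, 14 had no read and 2 had 1 read, so the lowest cell inside the limit stood at 48 reads and the highest cell outside it at 1. Among the P6- cells that passed, 26 (20.2%, exact binomial 95% interval 13.6 to 28.1%) had 10 or more reads, but none of the 11 that shared a plate with P6+ cells did. Such intervals cover counting error alone and say nothing of the spread between animals. The P6- cells with Trbv13-2 began at 14 reads, and the highest of the others had 9.

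**Figure D1:**
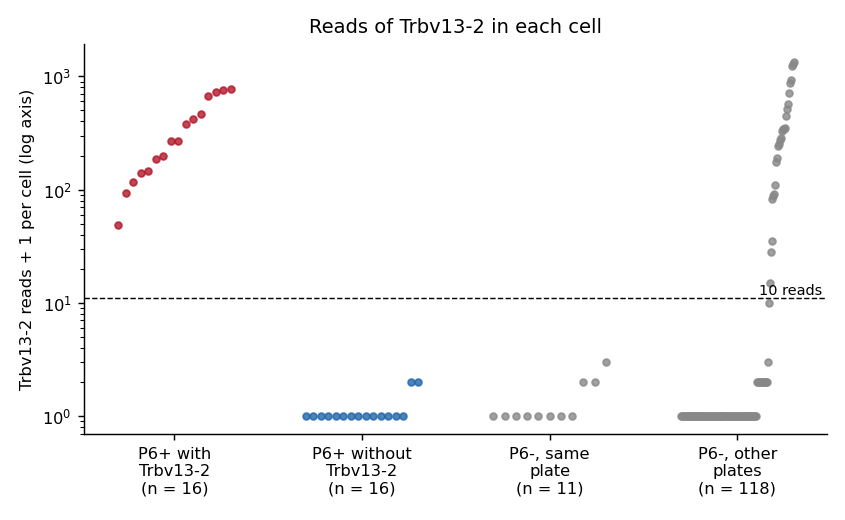
Reads of Trbv13-2 plus 1 in each cell that passed the limits, on a log axis, for P6+ cells with and without Trbv13-2 and for P6- cells of the same plate and of other plates; the dashed line marks 10 reads. The P6+ cells fall at 48 reads and above or at 0 and 1, with no cell between.

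Other receptor genes, which the division did not use, also differed. Reads of Trbj2-4 were found in 16 of 16 cells with Trbv13-2 (3 to 27 reads) and in 5 of 16 cells without it (0 to 15). Traj17 had 2 or more reads in 14 of 16 cells with Trbv13-2 (0 to 10 reads, median 4), whereas among the cells without it 13 had none and cells 4, 12 and 15 had 5, 4 and 1. The constant gene Trbc1, which marks β chains joined to the first D-J-C cluster, had 10 or more reads in none of the cells with Trbv13-2 and in 3 cells without. Trbc2 reached 10 reads in all 16 cells with Trbv13-2 and in 14 of 16 without. The α V gene named for the common receptor, Trav7d-6, had no read in any of the 32 cells, and its close copy Trav7n-6 had 7 reads in 1 cell, so the counts of these near-identical genes are uncertain.

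The cells without Trbv13-2 were not 1 clone. Another β V gene reached 10 reads in 11 of them: Trbv2 in 4, Trbv13-1 in 3, Trbv3 in 2, and Trbv4, Trbv12-1, Trbv12-2 and Trbv29 in 1 each, with 2 cells holding 2 of these genes. The other 5 had no β V gene at 10 reads, so a missed Trbv13-2 chain in those cells cannot be told apart from its absence. Among the cells with Trbv13-2, 10 also had 10 or more reads of Trbv12-2 (11 to 321), the only other V gene to reach that level there. Trbv12-2 lies at 41118851 to 41119364 on chromosome 6, upstream of Trbv13-2 on the same strand.

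The groups were sequenced to similar depth. Cells with Trbv13-2 had 956280 to 3332191 reads in genes (median 1700549) and cells without it 1103135 to 2700535 (median 1820936). Genes with a read numbered 3269 to 5768 (median 4596.5) with Trbv13-2 and 3591 to 4680 (median 4222) without, and after thinning to the depth of the shallowest cell the medians were 3535 and 3357. Mitochondrial reads made up 0.7 to 1.6% of each cell with Trbv13-2 and 0.505 to 2.82% of each cell without. The α constant gene Trac reached 10 reads in all 32 cells, while Cd3e and Cd3d did so in 16 of 16 cells with Trbv13-2 and 12 of 16 without, and Cd4 in 8 of 16 in both groups. Of the markers of other cells, Cd8a and Cd8b1 had no read, Lyz2 had 1 read, and Gzma was present in 1 cell of each group.

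All genes but those of the T cell receptor were then compared. Because the cells of 1 mouse are not replicates, no test was made. The reads of a group's 16 cells were summed and divided by its total (pooled cpm, with an exact Poisson 95% interval). This interval covers the counting error of amplified reads only, and neither the number of molecules nor the spread between cells. A gene was called higher or lower at a 2-fold ratio of pooled cpm plus 1. The higher group had to have 20 cpm and 10 reads in 5 of its cells, and the ratio had to hold without its highest cell. Of 2101 genes that passed the limits on level, 394 were higher in cells with Trbv13-2 (18.8%) and 238 were lower (11.3%), with a median log2 ratio of 0.22 over all 2101. Most calls rested on few cells. At most 8 cells of the higher group had 10 reads for 287 of the 394 higher genes and 193 of the 238 lower genes, and 85 higher genes reached 10 reads in no cell without Trbv13-2, against 14 lower genes that reached it in no cell with. With means over cells scaled by DESeq2 size factors, the median log2 ratio shifted by -0.32 and the calls became 297 higher and 340 lower, so the balance of the directions depended on the scaling.

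**Figure D2:**
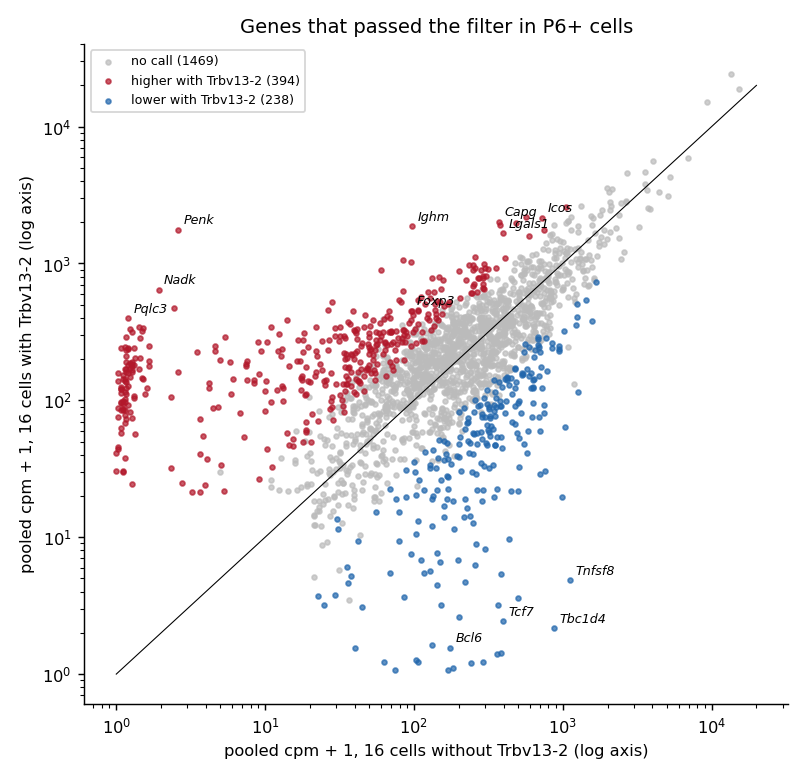
Pooled cpm plus 1 of the 2101 genes that passed the limits on level, in the 16 P6+ cells with Trbv13-2 against the 16 without, both on log axes, with the line of equal levels. The 394 higher genes lie above the line and the 238 lower genes below it, with Penk, Nadk and Pqlc3 near the left edge and Tbc1d4, Tcf7 and Bcl6 near the lower edge.

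Among regulatory T cell genes more were called higher than lower in the cells with Trbv13-2. Of 29 listed genes, 8 were higher, 2 were lower and 21 passed the limits on level, against the 18.8% and 11.3% of all genes, and the median log2 ratio of all 29 was 0.82. Leaving out each cell in turn gave 6 to 10 higher genes, the DESeq2 scaling 6 and a division at 50 reads of Trbv13-2, which moved cell 1 with 48 reads to the other group, 5. The median of the list ran from 0.50 to 0.98 as each cell was left out. It was 0.44 with the DESeq2 scaling and 0.20 with medians over cells. Against the 11 cells with another β V gene alone, 14 were higher and 1 lower, with a median of 1.71, but in that comparison higher calls were more frequent over all genes too (31.2% of 1778 tested, with 8.27% lower). A cell with Trbv13-2 had 10 reads of 11 to 20 of the 29 genes (median 15), and a cell without it of 1 to 18 (median 8).

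Foxp3, the lineage factor of regulatory T cells on chromosome X at 7573644 to 7595245, was pooled at 451 cpm (444 to 459) with Trbv13-2 and 95.5 cpm (92.03 to 99.16) without, 4.72-fold higher. Single cells with Trbv13-2 ran from 0 over a median of 110.8 to 1835 cpm, and cells without it from 0 over 0.213 to 1548. Foxp3 reached 10 reads in 9 of 16 cells with Trbv13-2 (exact binomial 95% interval 29.9 to 80.2%) and in 2 of 16 without (1.55 to 38.3%). The 2 were cell 1, which carried Trbv3, and cell 12, which carried Trbv12-2 and 4 reads of Traj17, so the groups overlapped and 7 cells with Trbv13-2 stayed under 10 Foxp3 reads. Without cell 1 of the cells lacking Trbv13-2 the log2 ratio moved from 2.23 to 3.52. When the division was set at 50 reads of Trbv13-2, cell 1 of the cells with it, which held 2143 reads of Foxp3, changed sides, the ratio was 1.28 and the call of Foxp3 was lost.

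Il2ra, the high-affinity chain of the interleukin-2 receptor, followed a like pattern with 319 cpm against 68.8 cpm and 10 reads in 10 cells against 2. The 2 cells without Trbv13-2 that had Il2ra had no 10 reads of Foxp3, whereas 7 cells with Trbv13-2 had both. Icos, a costimulatory receptor, and Tnfrsf18, which encodes GITR, were detected at 10 reads in all 16 cells with Trbv13-2. For Icos the cells with Trbv13-2 held 782 to 4307 cpm (median 2202) and the cells without it 2.68 to 3133 (median 574), and 10 of the latter reached 10 reads. For Tnfrsf18 the ranges were 77.1 to 1277 cpm (median 589) and 0.37 to 1009 cpm (median 232). Its log2 ratio of 1.14 lay so close to the 2-fold limit that leaving out any of 14 cells ended the call, although the ratio itself stayed between 1.005 and 1.40.

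Klrg1, a killer lectin-like receptor of differentiated T cells, reached 10 reads in 14 cells with Trbv13-2 and 5 without, at 1751 against 749 cpm. Its single-cell values overlapped widely, from 0 to 3818 cpm (median 1693) and from 0 to 3157 cpm (median 2.39). Itgae, the αE integrin CD103, was pooled at 883 and 199 cpm and reached 10 reads in 7 and 4 cells, with medians of 1.18 and 0.88 cpm, so that it was absent or near absent in most cells of both groups. Ebi3, a subunit of interleukin-35 and interleukin-27, reached 10 reads in 5 cells with Trbv13-2 and none without, with 84.2 cpm (80.9 to 87.5) against 0.103 cpm (0.0212 to 0.301). The call of Ebi3 was lost when any of its 5 cells or the 4 cells rich in cell cycle genes, described below, were left out. That of Klrg1 was lost when Trbv13-2 was asked for at 1 or at 50 reads, with the DESeq2 scaling and without any of 3 cells, and that of Itgae without cell 5 or cell 12 with Trbv13-2.

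Other regulatory genes were not called. Ctla4, the inhibitory receptor, was at 938 against 615 cpm (log2 ratio 0.61), Ikzf2, the transcription factor Helios, at 598 against 314 cpm (0.93), and Tnfrsf4, or OX40, was at 10 reads in all 32 cells with a log2 ratio of 0.09. Without cell 14 of the cells lacking Trbv13-2, which held 53.1% of that group's Ikzf2 reads, the log2 ratio of Ikzf2 was 1.93 and it was called higher, and the ratio was 2.22 when Trbv13-2 was asked for at 1 read and 4.38 with medians over cells. Nt5e, the ectoenzyme CD73, and Izumo1r, or folate receptor 4, went the other way at 163 against 788 cpm and 236 against 937 cpm. The log2 ratio of Nt5e (-2.27) ran from -4.06 to -1.37 as single cells were left out, and its call was lost without cell 7 or cell 16 lacking Trbv13-2 and under 7 of 19 other settings, the DESeq2 scaling and the comparison with the 11 cells among them. Izumo1r also stands in the T follicular helper list. Il10 was under the limits, with 10 reads in 3 cells with Trbv13-2 and no read in the 16 cells without.

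**Figure D3:**
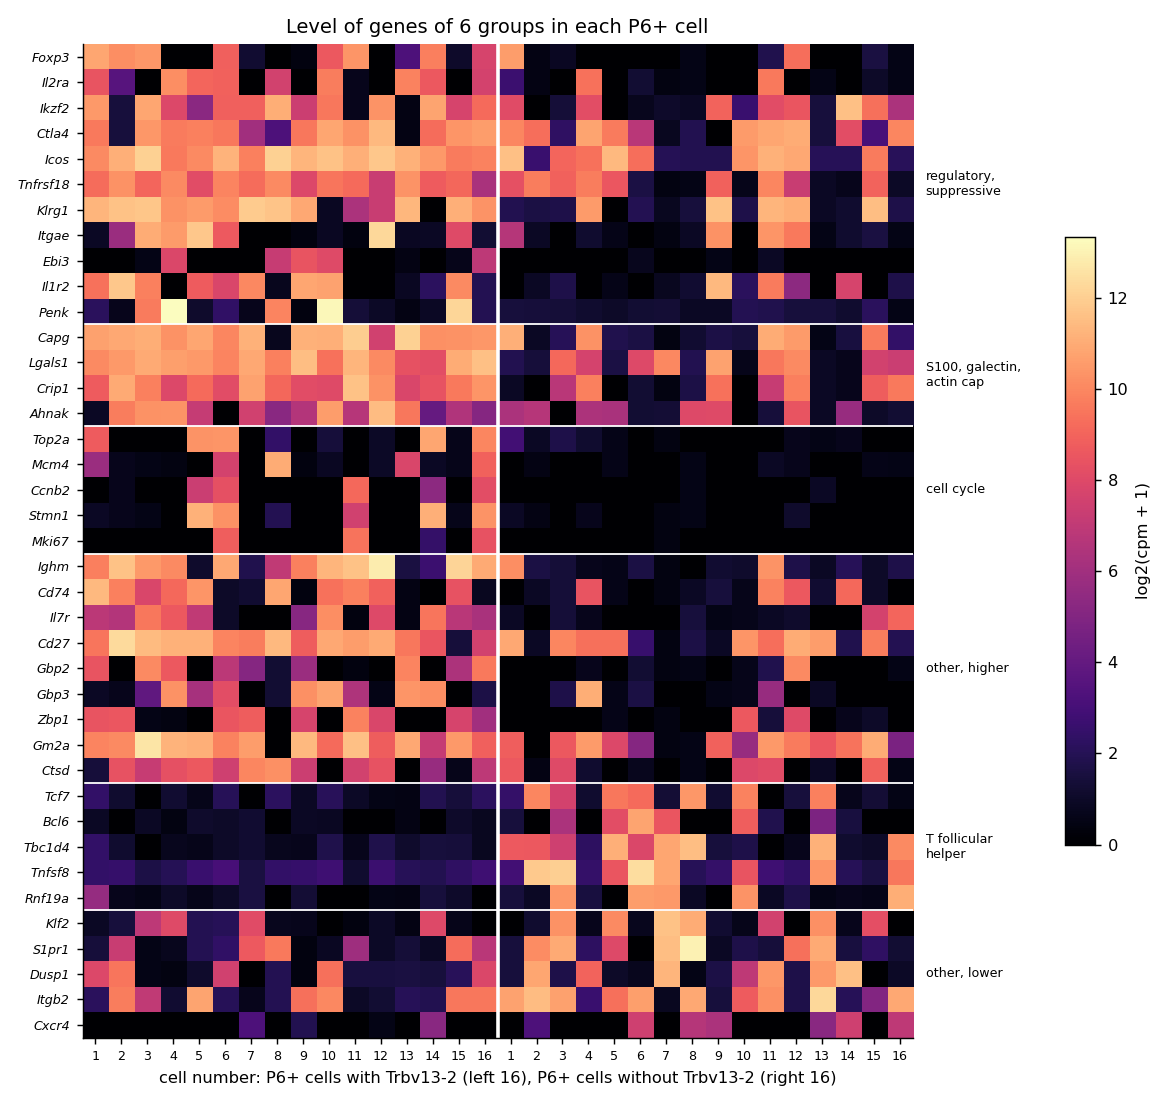
Log2 of cpm plus 1 for genes of 6 groups (rows) in the 16 P6+ cells with Trbv13-2 (left) and the 16 without (right), each column 1 cell numbered within its group. Icos, Tnfrsf18 and Lgals1 are present across the left block, Foxp3 in 9 of its cells and Penk above 10 reads in 5, while Tcf7, Bcl6 and Tbc1d4 reach 10 reads in part of the right block and in no cell of the left.

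Genes of suppressive and tissue effector function overlap with this group. Of 18 listed genes, 10 passed the limits, 3 were higher and 1 lower (18.8% and 11.3% over all genes), with a median log2 ratio of 1.64. That median was 1.22 with the DESeq2 scaling and 0 with medians over cells. Without cell 10 with Trbv13-2 no higher call remained in the list, while against the 11 cells with another β V gene, where 31.2% of all genes were higher, 7 were. Penk, which encodes the opioid precursor proenkephalin, had the highest log2 ratio of all called genes outside the receptor, at 1758 cpm with Trbv13-2 and 1.61 cpm without. The reads came from 5 cells: cells 4, 10, 15, 3 and 8 with 30299, 10943, 8641, 1858 and 1339 reads, while the other 27 cells had 7 or fewer. Cell 4 held 57.1% of the pooled reads, and without it the log2 ratio was 8.32 in place of 9.39. Since 5 cells is also the limit of the rule, leaving out any of them ended the call. Of the 5 cells with Penk, 2 also had 10 reads of Foxp3 and all 5 had 10 reads of Ighm. Il1r2, a decoy receptor for interleukin-1, was at 708 against 252 cpm and in 9 against 4 cells, and the call was lost when any of 6 cells was left out.

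The list of calcium-binding S100 proteins, annexins, galectins, actin-binding and other cytoskeletal or membrane genes had the most higher genes. Of 23 listed, 18 passed the limits, 10 were higher and none was lower, against 18.8% and 11.3% over all genes, and the median log2 ratio was 1.28. Leaving out each cell gave 9 to 11 higher genes, and the DESeq2 scaling gave 7 higher and 1 lower. Capg, an actin filament capping protein, also listed among the regulatory genes, was at 2024 cpm (2008 to 2040) with Trbv13-2 and 374 cpm (367 to 381) without, 5.41-fold higher. The cells with Trbv13-2 held 0.717 to 4300 cpm (median 1764) and the cells without it 0.37 to 2208 (median 2.41). All but cell 8 of the cells with Trbv13-2 reached 10 reads, against 5 of 16 without, and in 83.2% of the 256 pairs of a cell from each group the cell with Trbv13-2 was the higher (ties shared equally).

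Lgals1, which encodes galectin-1, was at 10 reads in all 16 cells with Trbv13-2, from 291 to 3050 cpm (median 1428), and in 9 of 16 without, from 0.585 to 1748 cpm (median 175). Its cell with Trbv13-2 was the higher in 89.5% of pairs. Crip1, a small LIM-domain protein, was also at 10 reads in every cell with Trbv13-2 (225 to 3158 cpm, median 567) and in 7 without (0 to 894 cpm, median 1.85). Ahnak, a giant scaffold protein, was at 632 against 83.6 cpm and in 14 against 8 cells. The remaining 6 called members were S100a6, S100a10, S100a13, Anxa2, Vim and Emp3, with log2 ratios of 1.46, 1.54, 1.89, 1.28, 1.86 and 1.62. Of the members without a call, S100a11 stood at 0.41, Tagln2 at 0.28 and Lmna, which encodes nuclear lamins, at -1.36.

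Among genes of T follicular helper cells more were called lower than higher in the cells with Trbv13-2. Of 24 listed, 8 were lower, 1 was higher and 11 passed the limits, against 11.3% lower and 18.8% higher over all genes, and the median log2 ratio of all 24 was -1.998. Leaving out each cell gave 6 to 9 lower genes and the DESeq2 scaling 8. With medians over cells in place of pooled levels, 2 were lower and 2 higher with a median of -0.13, and with 10 reads asked for in 8 cells, 4 were lower; Tcf7 and Bcl6 lost their calls under both. A cell with Trbv13-2 had 10 reads of 2 to 5 of these genes (median 3), and a cell without it of 1 to 12 (median 6).

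Tcf7 encodes TCF1, which keeps T cells in follicular, memory and other self-renewing states, and lies on chromosome 11 at 52252371 to 52283014. No cell with Trbv13-2 reached 10 reads of it, and the highest of these cells was at 4.28 cpm. Among the cells without Trbv13-2, 7 reached 10 reads and the highest was at 1372 cpm (median 3.17). Pooled levels were 1.42 cpm (1.03 to 1.92) and 396 cpm (388 to 403). In only 29.3% of pairs was the cell with Trbv13-2 the higher, and 9 of the 16 cells without Trbv13-2 stayed under 10 reads.

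Bcl6, the factor that defines follicular helper cells, gave 10 reads in none of the cells with Trbv13-2 and in 6 of those without, and 5 of the 6 also had Tcf7. Its highest cell with Trbv13-2 was at 1.31 cpm and its highest cell without at 1813 cpm. Tbc1d4, a Rab GTPase activator, had the lowest log2 ratio of all called genes (-8.65), from 1.16 cpm (0.807 to 1.61) with Trbv13-2 to 868 cpm (857 to 878) without. All cells with Trbv13-2 lay at or under 4.28 cpm, and 9 cells without it reached 10 reads, up to 2945 cpm (median 210). Tnfsf8, the ligand of CD30, was at 3.84 against 1116 cpm, between 1.27 and 7.32 cpm in each cell with Trbv13-2 and between 2.01 and 5562 cpm in the cells without.

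Rnf19a, a RING-finger ubiquitin ligase, was at 10 reads in 1 against 5 cells, Tox, a nuclear factor of follicular and chronically stimulated T cells, in 2 against 8, and Asap1, an Arf GTPase activator, in 1 against 5. Cxcr5 and Pdcd1, the surface markers used to define follicular helper cells, were under the limits, with 10 reads in 1 against 2 cells and 1 against 3 cells. Il21 had no read. Batf, an AP-1 family factor needed in several effector lineages, was the 1 higher member, at 622 against 135.2 cpm and in 11 against 3 cells. Cell 13 held 49.8% of its reads with Trbv13-2, and its call was lost without cell 11, at 50 reads of Trbv13-2 and with the DESeq2 scaling. Of the 7 cells with Tcf7, all without Trbv13-2, none had 10 reads of Foxp3, which only 2 of the 16 cells without Trbv13-2 reached.

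**Figure D4:**
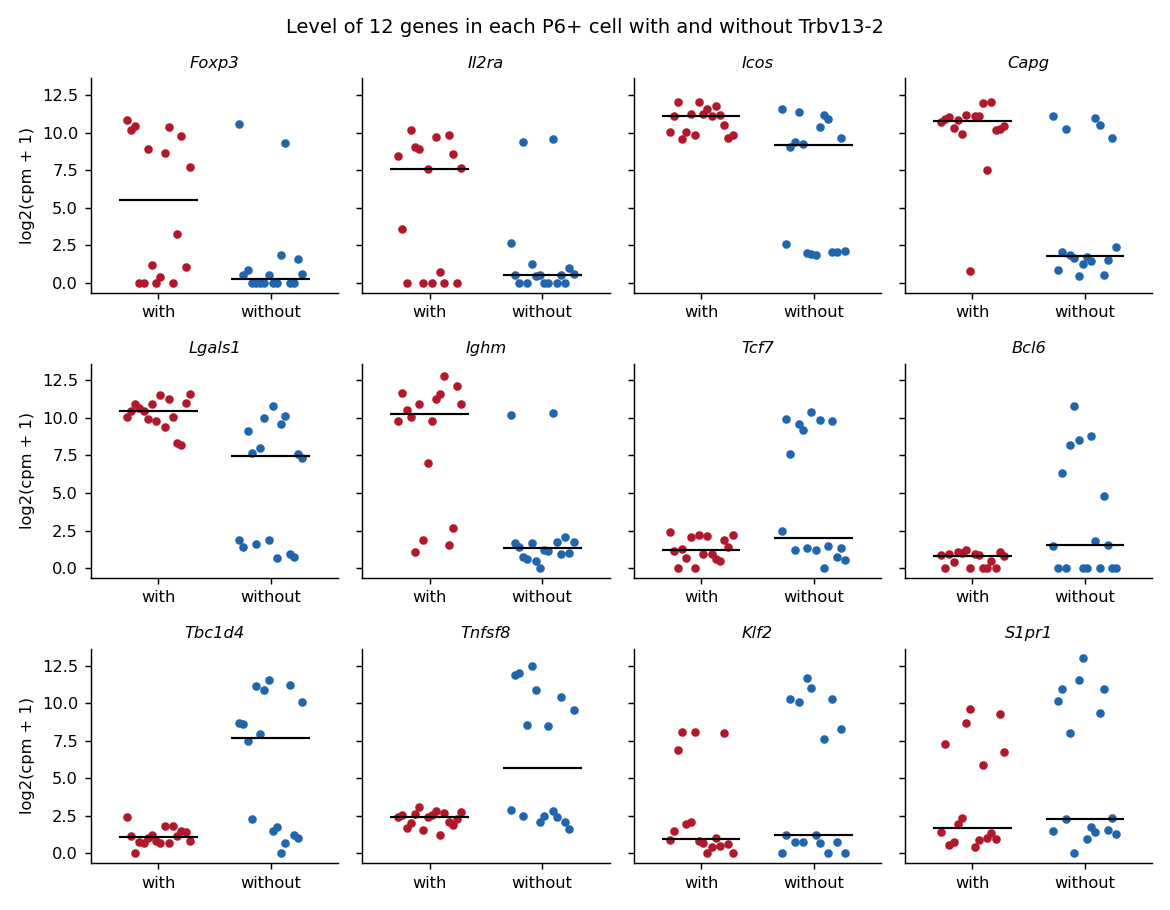
Log2 of cpm plus 1 of 12 genes, 1 panel each, in the 16 P6+ cells with Trbv13-2 and the 16 without; each point is 1 cell and the black bar is the median of the plotted values. Icos, Capg, Lgals1 and Ighm are higher in most cells with Trbv13-2, and Tcf7, Bcl6, Tbc1d4 and Tnfsf8 are at 7.32 cpm or less in all 16 cells with Trbv13-2 and spread up to 1372 cpm or more in the cells without.

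Genes of naive and memory state and of recirculation divided between the directions, with 4 of 20 higher and 4 lower, 12 past the limits and a median log2 ratio of 0.02. Over all genes 18.8% were higher and 11.3% lower. The lower genes were Tcf7, Klf2, Klf3 and S1pr1. The calls of Tcf7, Klf2 and S1pr1 were lost with medians over cells and with 10 reads asked for in 8 cells. That of Klf2 was also lost against the 11 cells with another β V gene. Among the higher genes, Cd27 lost its call with medians over cells. Klf2, a factor that drives S1pr1 and so the exit from lymph nodes, was at 58.5 against 703 cpm and in 4 against 7 cells. S1pr1, the receptor for sphingosine-1-phosphate, was at 113.2 against 1267 cpm, but in 6 against 7 cells, with a highest cell of 791 and 8045 cpm. The cells with S1pr1 thus differed in level more than in number.

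The higher genes of that list included Il7r, Foxp1 and Cd27. Il7r, the interleukin-7 receptor, was at 214 against 51.99 cpm and in 11 against 2 cells, and Cd27 at 1580 against 590 cpm and in 15 against 9 cells. Il7r was also called higher with Trbv13-2 among P6- cells, at 854 against 265 cpm, 1 of 6 genes called higher in both, beside Eloa, Sdhaf1, Slc50a1, Smap2 and Srprb. These were 6 of the 394 genes called higher in P6+ cells, while 3.12% of all tested genes were called higher in P6- cells.

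Cell cycle genes called higher in the cells with Trbv13-2 were detected in few of them. Of 29 listed genes, 7 were higher, none was lower and 13 passed the limits, against 18.8% higher and 11.3% lower over all genes, and the median log2 ratio was 1.64. Cells 5, 6, 14 and 16 with Trbv13-2 had 10 reads of 17, 21, 17 and 19 of the 29 genes. The other 12 cells with Trbv13-2 had 2 to 10 and the cells without it 0 to 8. Top2a, the topoisomerase of dividing cells, was at 247 cpm with Trbv13-2 and 0.652 cpm without, and Stmn1, a regulator of microtubules, at 332 and 0.24 cpm, each with 10 reads in 5 cells against none. Mcm4, part of the replicative helicase, and Ccnb2, a mitotic cyclin, were likewise in 5 cells against none, and Mki67, the proliferation antigen Ki-67, in 3 against none. Cell 11, with 8 of the 29 genes, held most reads of Mki67 (71.1%) and Ccnb2 (63.2%). Many of these genes stood at the limit of 5 cells, and without cell 16 the list had 1 higher gene; at 50 reads of Trbv13-2 it had 4 and with medians over cells 3.

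The 4 cells also included those with the most genes, cell 16 with 5768 and cell 6 with 5616. Leaving out 4 of 16 cells makes the limit of 5 cells harder to reach for higher genes alone. Of the 394 higher genes, 287 had 10 reads in at most 8 cells. How much of the change in counts belongs to these 4 cells was not tested. Without the 4 cells, 207 genes were higher and 266 lower of 1621 that passed the limits, and 197 of the 394 higher genes and 220 of the 238 lower genes were among them. The list of cell cycle genes then had 1 higher gene and a median of 0.00. The regulatory list had 7 higher and 2 lower genes, the S100 and annexin list 10 higher, and the follicular helper list 8 lower and 1 higher, so the counts in these lists changed by at most 1 gene. Of the 4 cells, cells 6, 14 and 16 had 10 or more reads of Foxp3 and cell 5 had none.

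Ighm, the constant gene of immunoglobulin M on chromosome 12 at 113418558 to 113422730, was also called higher in the cells with Trbv13-2. It reached 10 reads in 12 of 16 cells with Trbv13-2 and in cells 1 and 11 alone of the 16 without, at 1870 cpm (1854 to 1885) against 96.2 cpm (92.7 to 99.9). The cells with Trbv13-2 held 1.14 to 7238 cpm (median 1260) and the cells without it 0 to 1275 cpm (median 1.47), and the cell with Trbv13-2 was the higher in 88.3% of pairs. Cd74, the invariant chain of MHC-II, was at 563 against 110 cpm and in 10 against 4 cells. Ighm and Cd74 were 2 of the 16 listed B cell markers, and the other 14 were under the limits: Cd79a, Ms4a1, Pax5, Ighd, H2-Ab1 and Blk had no read in the 32 cells, Cd79b reached 10 reads in 1 cell of each group, and Igkc in 2 cells with Trbv13-2. The summed level of the 16 markers ran from 2.74 to 7726 cpm with Trbv13-2 and from 0.908 to 2221 cpm without. Cells stained for CD45R had been removed in the sort, and the part of these markers in the other differences was not tested. Among P6- cells, Ighm reached 10 reads in 30 (23.3%), and there it was called lower, at 214 cpm with Trbv13-2 and 639 cpm without.

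Genes of the other helper lineages gave 6 calls in 3 lists, beside 18.8% higher and 11.3% lower over all genes. In the T helper 1 list of 22, of which 11 passed the limits, Il18rap, Cxcr6 and Runx3 were higher and Stat4 was lower, and the median log2 ratio was -0.07. Tbx21, the T helper 1 factor T-bet, was under the limits with 10 reads in 3 cells with Trbv13-2 and none without. Cxcr6, a chemokine receptor of tissue-homing T cells, was in 7 against 2 cells, and 58.6% of its reads with Trbv13-2 came from cell 9, without which the log2 ratio was 1.02 in place of 2.12 and the call was lost. Stat4, which relays interleukin-12, was in 4 against 11 cells at 113.4 against 351 cpm. In the T helper 2 list of 13, of which 4 passed, Batf was the 1 call, and Gata3, its lineage factor, was at 423 against 357 cpm. In the T helper 17 list of 16, of which 4 passed, Ltb4r1, a leukotriene B4 receptor, was the 1 call, and the other 15 were not called. The median of the T helper 17 list was 1.62 but moved to 0.30 without the 4 cells rich in cell cycle genes.

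Interferon-induced genes gave 3 higher and 1 lower of 15 that passed the limits and 31 listed, near the shares over all genes (18.8% and 11.3%), with a median log2 ratio of 0.40. Gbp2 and Gbp3, guanylate-binding proteins whose reads can be split between near-identical family members, were in 9 cells with Trbv13-2 each, against 1 and 2 cells without. Zbp1, a sensor of nucleic acid, was in 9 against 2 cells at 220 against 38.9 cpm. Irf7, a factor of the type I response, was lower at 158 against 534 cpm and in 3 against 7 cells. For Gbp2 and Gbp3 nearly all reads without Trbv13-2 came from 1 cell each (cell 12 with 99.5% and cell 4 with 97.97%).

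Lysosomal genes gave 3 higher and none lower of 12 that passed the limits and 20 listed, beside 18.8% and 11.3% over all genes, with a median of 0.80. Gm2a, the activator protein of ganglioside breakdown, was at 1982 against 487 cpm in 15 against 13 cells, so it differed in level more than in the number of positive cells. Ctsd, the protease cathepsin D, was in 12 against 5 cells, and Lgmn, the protease legumain, in 5 against none. Of the myeloid markers, Cst3 alone passed the limits, at 321 against 129.4 cpm and with no call, and 11 of the 14 had no read.

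Adhesion and migration genes went both ways. In a list of 16 genes of integrins and their ligands, 8 passed the limits, the integrin genes Itgae and Itgb7 and the ligand gene Icam1 were higher, and Itgb1 and Itgb2 were lower, beside 18.8% higher and 11.3% lower over all genes. Itgb7, the partner of Itgae, was at 2602 against 1057 cpm and at 10 reads in all 16 cells with Trbv13-2 against 7. Itgb2, the common chain of the leukocyte integrins, was at 354 against 1223 cpm and in 7 against 11 cells. Among 20 chemokine and lipid receptors, 10 passed, 2 were higher, Cxcr6 among them, and Cxcr4 and S1pr1 were lower, and Cxcr4, the receptor of Cxcl12, was in 2 against 7 cells.

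The early response and stress lists held few calls, and with Zfp36l1 as their only higher gene they lay below the 18.8% over all genes, while 4 genes were lower, beside 11.3% over all genes. Of 27 immediate early genes, 12 passed the limits, Zfp36l1 was higher and Dusp1 and Btg2 lower, with a median of -0.17. Dusp1, a phosphatase induced by stress and receptor signals, was at 91.7 against 751 cpm and in 5 against 7 cells. Of 14 heat shock and dissociation genes, 9 passed and Hsp90aa1 was the 1 call, lower at 88.2 against 355 cpm, and the median was -0.88. That call was lost without cell 13 or cell 15 lacking Trbv13-2 and under 6 of 19 other settings, while the DESeq2 scaling gave 4 lower genes in the list. Of 13 mitochondrially encoded genes, 9 passed and mt-Nd2 was the 1 call, also lower, with 10 reads in 8 cells of both groups, and the DESeq2 scaling gave 3 lower.

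**Figure D5:**
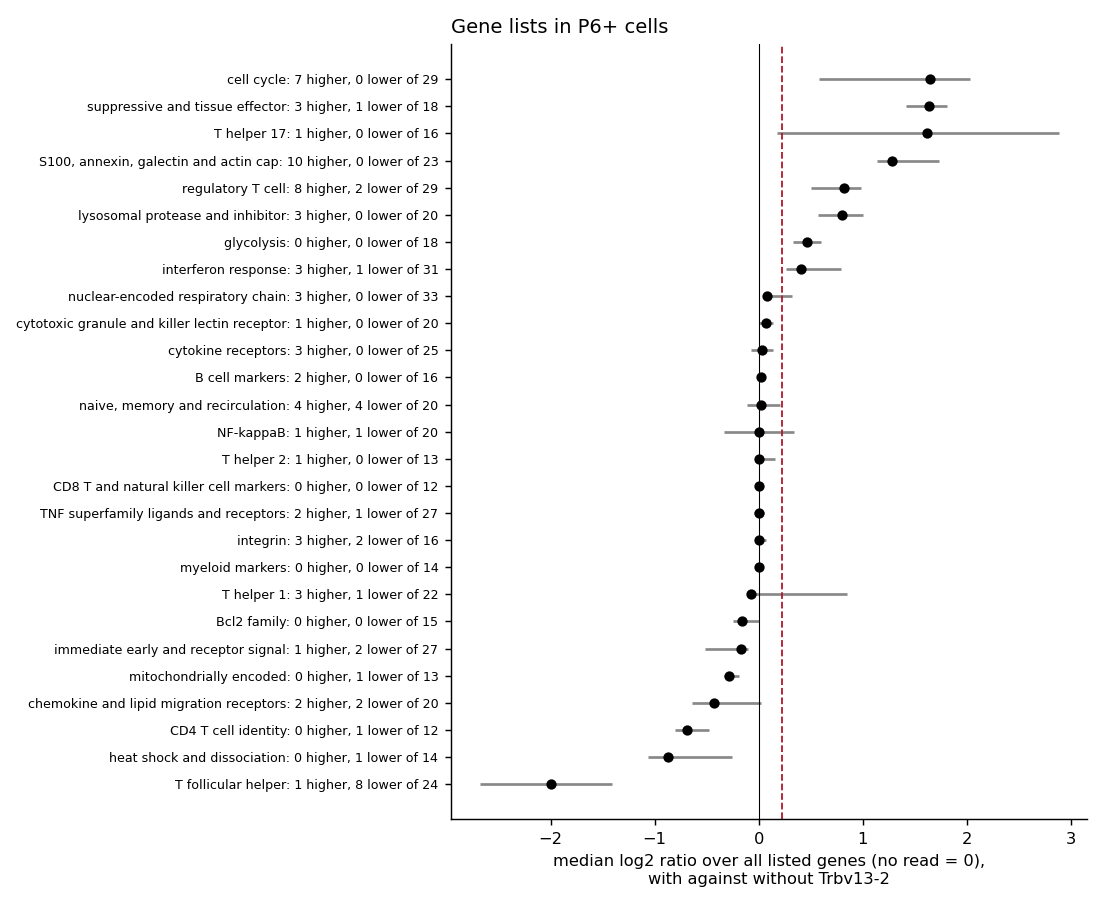
Median log2 ratio of pooled cpm plus 1 (with against without Trbv13-2) over all genes of each of 27 lists, a gene with no read counted as 0; grey lines span the values when each of the 32 cells is left out in turn, the dashed line is the median of the 2101 genes that passed the limits (0.22), and labels give the called genes. The cell cycle and suppressive lists are highest (both 1.64), the spans of the regulatory and S100 lists lie above the dashed line, and the T follicular helper list is lowest.

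The remaining lists held 0 to 3 calls each, beside 18.8% higher and 11.3% lower over all genes. In the CD4 T cell identity list of 12, 11 passed and Cd28 was the 1 call, lower at 503 against 1252 cpm, and the median was -0.68. Of 25 cytokine receptors 12 passed and 3 were higher (Il2ra, Il7r and Il18rap), and of 27 members of the TNF superfamily 7 passed, Tnfrsf18 and Cd27 were higher and Tnfsf8 lower. The list of 20 cytotoxic granule and killer lectin genes, of which 4 passed, had Klrg1 alone. The calls of Cd28, Zfp36l1 and Tnfaip3 stood close to the limit and were lost when any of 11, 11 and 10 cells was left out. The list of 20 NF-kappaB genes, of which 12 passed, had Icam1 higher and Tnfaip3 lower, and the list of 33 nuclear-encoded respiratory chain genes, of which 27 passed, had Ndufb8, Cox5a and Cox6b1 higher with a median of 0.08. No call was made among 18 glycolysis genes, 10 of them past the limits, of which Pkm was at 2248 against 1774 cpm, but 6 were higher, with a median of 1.07 in place of 0.47, against the 11 cells with another β V gene alone, where 31.2% of all genes were higher. No call was made among 15 Bcl2 family genes, 2 of them past the limits, of which Bcl2l1 was at 288 against 328 cpm, nor among 12 markers of CD8 T and natural killer cells, none of which passed.

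Beyond the lists, the highest ratios among called genes belonged to genes detected in few cells. After Penk came Nadk, the NAD kinase, at 643 against 0.927 cpm and in 6 cells against 1. Pqlc3, a membrane protein of the PQ-loop family, was detected most widely of these, with 10 reads in 10 cells with Trbv13-2 (up to 1730 cpm, median 245) and none without (up to 1.81 cpm). The other genes with the 12 highest ratios were Stmn1, Ssh1, Limd1, Tuba1b, Chmp5, Hnrnpm, Letm1, Adck5 and Unc13d, in 5 to 8 cells with Trbv13-2 and none without. Tuba1b encodes an α tubulin with close paralogs, to which its reads may in part belong. At the other end, besides Tbc1d4, Tnfsf8, Tcf7, Rnf19a and Bcl6, stood Pcyt2, Sfmbt1, Rprd2, Rbbp6, Setd2, Cnot7 and Cnot6l, in 5 or 6 cells without Trbv13-2 and at most 1 with.

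The widest detection was seen in 7 higher genes that had 10 reads in all 16 cells with Trbv13-2. These were Icos, Tnfrsf18, Lgals1, Crip1 and Itgb7, described above, and AW112010 and Cyba, each in 8 of 16 cells without. AW112010, an interferon-inducible transcript, was at 2196 against 562 cpm (log2 ratio 1.96), and Cyba, a subunit of the NADPH oxidase, at 974 against 234 cpm (2.06). Of the lower genes, Ftl1, the ferritin light chain, and Rps27rt, a ribosomal protein retrogene, had 10 reads in all 16 cells without Trbv13-2, at log2 ratios of -1.18 and -1.52, and in 16 and 15 cells with.

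The same division was made in the P6- cells, which come from 8 plates. A shared V segment does not by itself mean a shared clone, in these cells or in P6+ cells. Of 4098 genes that passed the limits, 3.12% were higher and 1297 (31.6%) lower in the 26 cells with Trbv13-2 than in the P6- cells without. The groups were of unequal size, so the limit of 5 cells was easier to pass in the larger one, and these counts cannot be set against those of P6+ cells. Of the genes called higher in P6+ cells, 6 were called higher and 61 lower in P6- cells, and of those called lower, 30 were called lower and 9 higher. Of the 12 genes with the lowest ratios in P6+ cells, 5 were called lower in P6- cells too, Tnfsf8 (-1.43), Rnf19a (-1.52), Cnot7 (-3.80), Rbbp6 (-5.50) and Sfmbt1 (-5.48), and Cnot6l was called higher (1.91). Of the 12 with the highest ratios, Letm1 (-1.54) and Pqlc3 (-1.54) were called lower there and none higher. Other leading genes gave log2 ratios in P6- cells of -0.16 for Foxp3, 0.22 for Capg, 0.21 for Il2ra, 0.20 for Icos, 0.18 for Tcf7 and 0.16 for Tbc1d4, with no call. The differences between the ratios of P6+ and P6- cells were not tested.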

How the data were processed

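Single CD4 T cells were profiled by Smart-Seq2. Per the labels and the study's methods, the authors mapped reads with STAR 2.6.0a to GRCm38 and deposited a table of raw read counts, neither normalized nor imputed, with the tetramer sign of each cell. Amplified reads carried no molecular identifiers. Rows of one name were averaged (81 names), as in the study. P6- cells were kept at 500000 reads, 2000 genes and under 10% mitochondrial reads. The mapping rate, a further limit of the study, was not used here, so P6- cells that the study removed are among those kept. P6+ cells were split at 10 reads of Trbv13-2, and 270 T cell receptor genes were left out. Pooled cpm, a pseudocount of 1 and the 2-fold rule are described in the text. No test across cells was made, since the cells are from 1 animal. Intervals were computed with scipy 1.17.1, and edgeR and DESeq2 gave alternative scale factors only. Named genes were those with the 12 highest and 12 lowest ratios, up to 4 called genes per list, the highest gene of lists with no call, and Foxp3, Il2ra, Ctla4, Ikzf2, Tnfrsf18, Capg, Tbx21, Gata3, Bcl6 and Tcf7; Icos, Klrg1, Mki67 and the other genes named were chosen after their values were seen. The division of the cells, the gene lists and these rules were chosen with earlier results of these data known. Positions are from GENCODE M21 on GRCm38, and junctions from the study's receptor table. Alternatives covered the split, scaling, pooling, limits on level and leaving out each cell. Results for a few genes within the naming rule and the lists are not reported here.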

Additional observations from a re-analysis of the deposited data

How the results depend on the processing

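No paired analysis was possible because all P6+ cells come from 1 mouse and no result comes from a test. Against 394 higher and 238 lower genes in P6+ cells with Trbv13-2, leaving out each cell in turn gave 320 to 437 higher and 200 to 249 lower genes. Without a limit on level the counts were 1411 and 940, with 10 reads in 8 cells 145 and 71, and with detection at 1 read 869 and 677, as these limits admit more or fewer genes. Against only those cells without Trbv13-2 that had another β V gene, 554 genes were higher (31.2%) and 147 lower (8.27%) of 1778. Medians over cells gave 403 higher (47.7%) and 81 lower (9.59%) of 845, and with the highest cell kept 566 (26.9%) and 409 (19.5%) were called. Settings chosen after seeing the data gave 601 higher genes (35.2%) and 7.74% of tested genes lower (11.3% in the reported fit) against the 10 cells with another β V gene and no Traj17 read, 207 higher genes without 4 cells rich in cell cycle genes, and 397 lower genes with the limits set over all 32 cells; the cause was not tested. In P6- cells, 10 reads in 8 cells left 42 higher and 811 lower genes. Means scaled by DESeq2 size factors gave 297 higher and 340 lower genes. Of 74 called genes, those of the naming rule and Icos, 17 kept their call under all 19 settings and 36 lost it when some cell was left out, mostly those detected in 5 cells, where the limit of 5 cells decides. Besides those given in the report, the 36 included Gbp2, Stat4, Btg2, Cox5a, Icam1, Il18rap, Runx3, Lgmn and Ltb4r1. The log2 ratio of Itgb1 turned from -3.78 to 0.091 with medians over cells, and no other called value of the named genes turned. Of genes without a call, Bcl2l1 turned from -0.19 to 0.50 with medians over cells and to 1.36 when cell 16 without Trbv13-2 was left out, Gata3 from 0.25 to -0.16 when cell 9 with Trbv13-2 was left out, and Gzma, read in 1 cell of each group, from 1.61 to -5.80 when its cell with Trbv13-2 was left out. Pkm and Gata3 moved to just below 0 with the DESeq2 scaling. In the lists, medians over cells gave 14 higher respiratory chain genes, where 47.7% of all genes were higher. The comparison with the 11 cells that had another β V gene gave 7 higher lysosomal genes and 5 higher T helper 1 genes, the latter with a median of 1.58 in place of -0.07, where 31.2% of all genes were higher.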
